A study of Homo sapiens with 34 samples.

Results

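RBPJ binding was mapped by ChIP-seq, the sequencing of DNA precipitated with an antibody, in 2 kinds of cell in which NOTCH is active, to ask which RBPJ sites of NOTCH-driven cells stay absent from GSI-resistant cells that are given the active receptor, and which sites are new there. The first is MB157, a triple-negative breast cancer (TNBC) line, labelled wild type, with an empty doxycycline-inducible vector (MB157 iEV). The second is MB157R, the MB157 cells that grew out after 25 weeks under 1 µM LY3039478, a γ-secretase inhibitor (GSI), with the same type of vector encoding an HA-tagged NOTCH1 that lacks the extracellular domain (MB157R iN1-ICD). All cells received 1 µg/ml doxycycline for 72 h. Each group had 3 libraries, and the authors called peaks on the pooled libraries against input. There is therefore 1 list per condition, no value per replicate, and differences between the conditions have no replicate error. The labels do not say whether GSI was in the medium during the ChIP-seq experiment. MB157 itself carries a deletion within NOTCH1 that removes the exons of the extracellular part. A NOTCH1 without its extracellular domain is, as background, still a substrate of γ-secretase. The genotype of the second group is labelled GSI-resistant MB157R, and the RBPJ antibody was used on chromatin fixed with DSG and formaldehyde. MB157R is a resistant derivative of a single line, so that properties of resistance and of this derivative cannot be told apart.

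The members were all summits on chromosomes 1 to 22 and X, 25243 in MB157 iEV and 37297 in MB157R iN1-ICD, or 62540 of the 290228 summits in the 8 lists of the series. A parental summit with an iN1-ICD summit less than 500 bp away was called shared, and one without was called absent. An iN1-ICD summit without a parental summit that close was called new. The lists of MB157 iSOX2, MB157R iEV and SOX2 were used only for comparison. The fold given with a site is the authors' enrichment over background at the summit, a quantity within 1 list. The depth recovered from the peak lists, as the number of fragments expected at any position of the genome, was 1.60 for MB157 iEV and 1.75 for MB157R iN1-ICD, and summits had a median of 15 and 16 fragments. A site near the calling threshold can be missed at this depth, so absent means not called. All positions are in hg38 and counted from 1. Intervals are 95% intervals that cover counting error only, and the tests are about sites in these pooled lists, which are not replicates of a condition.

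RBPJ is the DNA-binding protein of the NOTCH pathway. When a ligand binds a NOTCH receptor, γ-secretase releases the intracellular domain, which enters the nucleus, binds RBPJ and recruits a Mastermind (MAML) coactivator. Without it, RBPJ can hold corepressors at the same genes. HES and HEY repressors and the feedback inhibitor NRARP are the best known direct targets. RBPJ recognises the sequence TGTGGGAA and close variants of it, whereas AP-1, a dimer of FOS and JUN proteins, recognises TGAGTCA or TGACTCA at many enhancers, and GRHL factors, regulators of epithelial genes, recognise AACCNGTT.

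The sites below are among those of highest fold in each class that hold an RBPJ motif within 50 bp of the summit, at most 1 for a gene, and no peak of the other list overlaps the absent and new ones. They show that shared, absent and new sites alike can hold a canonical RBPJ sequence. Each line gives the nearest gene and 101 bases of the plus strand with the summit in the centre, and capitals mark the RBPJ motif on either strand. The shared sites lie at chr9:137311575-137311675 upstream of NRARP, at chrX:119791715-119791815 at the promoter of RPL39 and at chr15:40871947-40872047 near RHOV, with folds in MB157 iEV of 70.1, 69.2 and 67.7.
NRARP, shared: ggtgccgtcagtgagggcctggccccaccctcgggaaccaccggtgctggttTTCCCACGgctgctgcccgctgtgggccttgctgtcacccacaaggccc
RPL39, shared: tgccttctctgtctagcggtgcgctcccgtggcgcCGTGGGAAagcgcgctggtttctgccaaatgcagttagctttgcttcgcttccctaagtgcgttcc
RHOV, shared: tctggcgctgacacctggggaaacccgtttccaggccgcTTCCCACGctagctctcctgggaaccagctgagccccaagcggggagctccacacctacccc

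The absent sites lie at chr4:155617482-155617582 upstream of GUCY1A1, chr22:35637344-35637444 at MB, chr9:127840069-127840169 in ENG and chr1:205690204-205690304 upstream of SLC45A3. Their folds in MB157 iEV were 33.4, 32.6, 31.8 and 30.4. RBPJ was also called at each of them in MB157 iSOX2, with folds of 16.9, 14.8, 26.7 and 7.18, and at none of them in MB157R iEV.
GUCY1A1, absent: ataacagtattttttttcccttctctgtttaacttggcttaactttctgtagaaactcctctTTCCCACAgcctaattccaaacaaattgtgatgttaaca
MB, absent: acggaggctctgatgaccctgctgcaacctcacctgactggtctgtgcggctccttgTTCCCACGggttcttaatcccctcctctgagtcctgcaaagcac
ENG, absent: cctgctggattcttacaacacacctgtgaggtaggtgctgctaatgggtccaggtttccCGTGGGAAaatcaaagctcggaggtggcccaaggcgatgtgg
SLC45A3, absent: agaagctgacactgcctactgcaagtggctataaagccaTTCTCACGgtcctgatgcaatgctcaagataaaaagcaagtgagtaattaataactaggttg

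The new sites lie at chr7:102531745-102531845 near UPK3BL2, chr14:93941321-93941421 in ASB2 (nearest start site FAM181A), chr17:50178686-50178786 near SGCA and chr2:130809098-130809198 upstream of ARHGEF4. Their folds in MB157R iN1-ICD were 82.0, 45.9, 41.2 and 39.6. All of them were RBPJ sites of MB157R iEV as well, with folds of 110, 28.6, 8.68 and 39.4. That near SGCA, whose window holds 2 RBPJ motifs, was also called in MB157 iSOX2 (fold 4.94), and the other three were not.
UPK3BL2, new: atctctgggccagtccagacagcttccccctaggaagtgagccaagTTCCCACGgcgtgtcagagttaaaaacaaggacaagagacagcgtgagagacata
FAM181A, new: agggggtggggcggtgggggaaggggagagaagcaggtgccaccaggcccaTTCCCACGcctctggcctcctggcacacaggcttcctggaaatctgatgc
SGCA, new: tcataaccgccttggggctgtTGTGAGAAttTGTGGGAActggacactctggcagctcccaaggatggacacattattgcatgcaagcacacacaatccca
ARHGEF4, new: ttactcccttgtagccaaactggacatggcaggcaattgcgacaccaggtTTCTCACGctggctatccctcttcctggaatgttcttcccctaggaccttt

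Further windows, chosen after the motif shares had been seen, show the AP-1 motif at new sites and the GRHL motif at absent sites, in capitals. The new sites are chr20:44495898-44495998 near TTPAL (fold 40.2) and chr3:13850367-13850467 in WNT7A, a WNT ligand (fold 35.98). The absent sites are chr9:133129013-133129113 in RALGDS, an exchange factor of the RAL GTPase (fold 13.7), and chr12:68800465-68800565 upstream of MDM2, which directs p53 to degradation (fold 13.6). The MDM2 window also holds the RBPJ motif TGTGGGAA, which is left in lower case.
TTPAL, new: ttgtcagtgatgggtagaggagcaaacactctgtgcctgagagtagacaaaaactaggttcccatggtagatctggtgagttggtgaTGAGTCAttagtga
WNT7A, new: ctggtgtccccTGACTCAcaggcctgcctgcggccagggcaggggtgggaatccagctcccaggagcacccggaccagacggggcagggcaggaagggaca
RALGDS, absent: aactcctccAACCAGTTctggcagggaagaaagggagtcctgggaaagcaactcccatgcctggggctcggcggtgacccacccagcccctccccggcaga
MDM2, absent: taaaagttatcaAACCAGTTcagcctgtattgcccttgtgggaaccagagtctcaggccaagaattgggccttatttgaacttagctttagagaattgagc

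Of the 25243 parental RBPJ sites, 11159 were shared (44.2%, exact binomial interval 43.6 to 44.8) and 14084 were absent with N1-ICD (55.8%). Of the 37297 iN1-ICD sites, 11204 were shared (30.04%, 29.6 to 30.5) and 26093 were new (70.0%). These shares follow from the rule and were not tested. Shared sites had the higher folds in both lists, with medians of 5.43 against 4.60 for absent sites and 5.50 against 4.72 for new sites. In the lowest of 5 bins of fold, 29.0% of the parental and 19.5% of the iN1-ICD sites were shared, and in the highest bin 62.8% and 45.8%. Strong sites were nevertheless among the absent ones, as 679 of the 2072 parental sites with a fold of at least 10 were absent, 629 of them without any overlap with an iN1-ICD peak. Likewise, 1329 of the 2819 iN1-ICD sites with such a fold were new, 1263 of them without overlap with a parental peak.

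**Figure D1:**
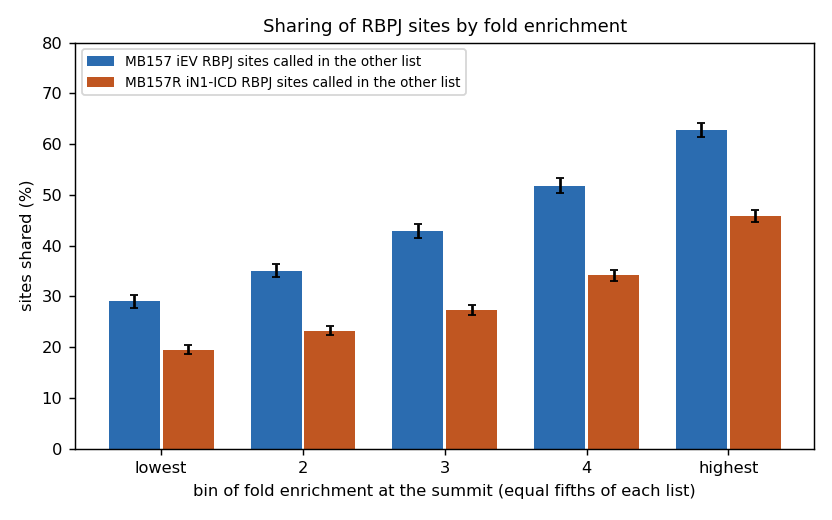
Share of RBPJ sites (y axis, %) of MB157 iEV (blue) and MB157R iN1-ICD (orange) that were called in the other list, in 5 bins of fold of about equal size (x axis), with exact 95% intervals as bars. The share is higher in each higher bin and reaches 62.8% for parental and 45.8% for iN1-ICD sites.

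Most absent and new sites lay far from the nearest summit of the other list. The rule itself used this distance, and a site whose call was missed could lie as far away. The nearest iN1-ICD summit was at least 5 kb away for 67.2% of absent sites, and the nearest parental summit for 77.0% of new sites. A peak region of the other list overlapped 859 absent sites (6.10%) and 1030 new sites (3.95%), which are places where both lists have a peak with summits apart. At the limit of 500 bp, 543 shared parental sites lay 400 to 500 bp from an iN1-ICD summit and had a median fold of 4.72, and 422 absent sites lay 500 to 600 bp away with a median fold of 4.59. Among iN1-ICD sites, 563 shared sites (median fold 4.72) and 484 new sites (median fold 4.59) lay in these ranges.

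Absent and new sites were more distal than shared sites. A summit was counted as a promoter site when the transcription start site (TSS) of a protein-coding gene was at most 1 kb away. This was so for 19.1% of absent and 41.6% of shared parental sites (odds ratio 0.331, 0.313 to 0.350, two-sided exact Fisher test, p = 1e-300, the smallest value written). For iN1-ICD sites the shares were 14.5% of new and 41.6% of shared sites (odds ratio 0.239, 0.227 to 0.251, same exact test, p = 1e-300). The odds ratios within bins of fold were 0.310 and 0.217. The median distance to a TSS was 18.1 kb for absent, 27.4 kb for new and 2.47 kb for shared parental sites. Absent sites lay at promoters more often than new ones (odds ratio 1.39, 1.31 to 1.47, two-sided exact Fisher test, p = 8e-32).

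The other RBPJ lists, which the rule did not use, divided along the line of origin of the cells. RBPJ was called in MB157 iSOX2, the parental line with SOX2 induced, at 57.7% of absent and 82.2% of shared parental sites, and in MB157R iEV, the resistant line without N1-ICD, at 21.4% of absent and 82.9% of shared sites. For new sites the order was opposite, with 65.4% called in MB157R iEV and 17.1% in MB157 iSOX2. Of absent sites, 5989 were called in MB157 iSOX2 but not in MB157R iEV and 874 the other way, a ratio of 6.85 (exact McNemar test, two-sided, p = 1e-300). Of new sites, 13671 were called in MB157R iEV only and 1045 in MB157 iSOX2 only, a ratio of 13.1 (same exact test, p = 1e-300). With the lists of MB157R iEV (46601 summits) and MB157 iSOX2 (34521) shortened to equal length, an alternative chosen after seeing the data, the ratios were 11.4 for absent and 8.65 for new sites, and at promoters alone they were 2.40 and 3.93. Of shared parental sites, 1329 were called in MB157R iEV only and 1247 in MB157 iSOX2 only (exact McNemar test, two-sided, p = 0.11), and of shared iN1-ICD sites 1336 and 1205 (same exact test, p = 0.0099). At promoters MB157R iEV was ahead among shared sites of both lists, with 443 against 371 parental (same exact test, p = 0.013) and 440 against 353 iN1-ICD sites (p = 0.0022). The lists of 1 line also share the genome copies and culture history of that line, and the part of these in the ratios was not tested.

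A remainder followed neither line. RBPJ was called at 5085 absent sites (36.1%) in neither of these lists and their median fold was 4.15, against 5.14 for absent sites called in MB157 iSOX2 only. There were 7973 new sites (30.6%) in neither list, with a median fold of 4.21 against 5.08 for new sites called in MB157R iEV only. At 2136 absent sites RBPJ was called in both other lists, that is in MB157R iEV but not with N1-ICD in the same line.

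**Figure D2:**
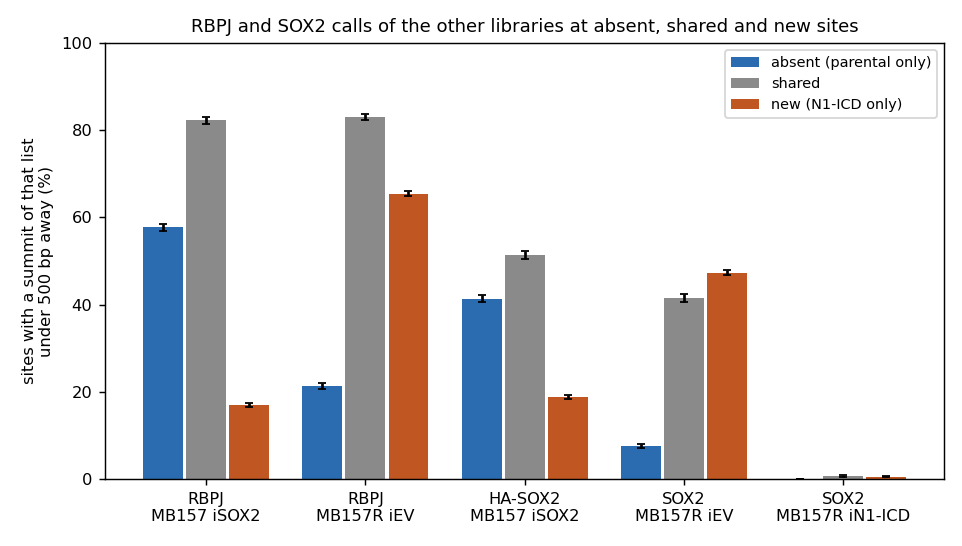
Share of absent (blue), shared parental (gray) and new (orange) RBPJ sites (y axis, %) that had a summit of another list less than 500 bp away (x axis, 5 lists), with exact 95% intervals as bars. Absent sites had RBPJ in MB157 iSOX2 in 57.7% and in MB157R iEV in 21.4%, and new sites in 17.1% and 65.4%.

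Next, parental sites that were not called in MB157R iEV were followed into iN1-ICD, including any whose call was merely missed in MB157R iEV. Of 12979 such sites, 1905 were called with N1-ICD (14.7%, exact interval 14.1 to 15.3), against 9254 of 12264 parental sites that were called in MB157R iEV (75.5%, 74.7 to 76.2). A strong site of this kind lay 43.0 kb from the start of LURAP1L (chr9:12817625-12818288). Its fold was 58.8 in MB157 iEV, 48.3 in MB157R iN1-ICD and 21.9 in MB157 iSOX2. At TENT4A, a nucleotidyltransferase gene, the folds were 63.7, 9.69 and 16.4 in the same order (chr5:6732970-6733530), and upstream of SEMA3E, a semaphorin gene, they were 42.6, 5.49 and 26.5 (chr7:83684678-83685432). These were chosen after their values were seen, among sites that no MB157R iEV peak overlaps.

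The 1905 sites called with N1-ICD differed from the 11074 that were absent, a comparison chosen with these values in view. They were more often promoters (28.9% against 12.3%, odds ratio 2.90, 2.58 to 3.25, two-sided exact Fisher test, adjusted p = 1.5e-67 over 26 tests) and more often near a SOX2 summit of MB157R iEV (22.6% against 4.18%, odds ratio 6.68, 5.80 to 7.70, adjusted p = 2e-136). The RBPJ motif was found in 15.3% and 13.3% (odds ratio 1.18, 1.03 to 1.35, same exact test, adjusted p = 0.027), a difference that was not seen within bins of fold (odds ratio 1.02, 0.888 to 1.17).

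The SOX2 list of MB157R iEV separated absent from new sites more than it separated new from shared sites. A SOX2 summit of MB157R iEV lay near 7.73% of absent, 41.4% of shared parental and 47.3% of new sites. The odds ratio of absent against shared sites was 0.118 (0.110 to 0.127, two-sided exact Fisher test, p = 1e-300), and that of new against shared iN1-ICD sites (42.0%) was 1.24 (1.19 to 1.3, exact Fisher p = 1.3e-21). The latter depended on position: at distal sites it was 1.2 (50.4% against 45.9%, exact Fisher p = 2.7e-10), whereas at promoters SOX2 was less frequent near new than near shared sites (29.5% against 36.4%, odds ratio 0.730, 0.666 to 0.8004, exact Fisher p = 1.7e-11). New sites that were RBPJ sites of MB157R iEV were near SOX2 in 60.1%, and the remaining new sites in 23.2%.

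SOX2 summits of MB157R iN1-ICD, the cells in which the new sites were called, lay near 0.625% of new, 0.768% of shared iN1-ICD and 0.0426% of absent sites. That list held 323 summits in all, against 37963 in MB157R iEV. For HA-SOX2 of MB157 iSOX2, 41.4% of absent, 51.5% of shared parental and 19.0% of new sites were near a summit, so that shared sites were highest and absent sites came before new ones. Absent sites exceeded new sites in this share (odds ratio 3.01, 2.88 to 3.16, two-sided exact Fisher test, p = 1e-300). The HA control of MB157 iEV, with 77 summits, lay near 0.135% of absent and 0.0383% of new sites.

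The RBPJ motif, here TGTGGGAA, CGTGGGAA, TGTGAGAA or CGTGAGAA on either strand within 100 bp of the summit, was present at all classes of sites above its level 1 kb away. It was found at 12.5% of absent sites (2.82% in the flanks), at 15.7% of shared parental sites (2.38%) and at 10.5% of new sites (2.90%), while 2.41% of windows of the same length at all protein-coding TSSs held it. The odds ratio of absent against shared sites was 0.768 (0.715 to 0.825, two-sided exact Fisher test, adjusted p = 1.1e-12 over 38 motif tests), but it was 1.05 (0.973 to 1.13) within bins of fold. At promoters it was still below 1 within those bins (0.821, 0.680 to 0.990), and within bins of GC content over all sites it was 0.641 (0.595 to 0.691). For new against shared iN1-ICD sites (15.6%) it was 0.635 (0.595 to 0.678, same exact test, adjusted p = 2.6e-41) and 0.824 (0.770 to 0.882) within bins of fold.

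The AP-1 motif, TGAGTCA or TGACTCA, each the reverse complement of the other, separated new from absent distal sites most among the 19 motifs. At distal sites it was found in 23.4% of new and 3.26% of absent sites, with 3.56% and 3.14% in their flanks, so that absent sites held it at about the flank level. The odds ratio of absent against new distal sites was 0.110 (0.0990 to 0.123, two-sided exact Fisher test, adjusted p = 1.9e-299 over 19 motifs). Over all sites, it was 2.82 for new against shared (20.7% against 8.49%, 2.62 to 3.03, same exact test, adjusted p = 3.6e-201 over 38 tests) and 0.393 for absent against shared (2.90% against 7.06%, 0.347 to 0.444, adjusted p = 4.3e-53). At promoters alone the latter did not pass (odds ratio 0.682, 0.465 to 1.00, same exact test, adjusted p = 0.11). The control with the AP-1 letters in reverse order was present in 3.98% of new and 2.33% of absent distal sites (odds ratio 0.576 for absent against new, 0.502 to 0.662, same exact test, adjusted p = 2.5e-15), and new sites had the lower GC content, with a median of 52.7% against 55.7% for absent and 61.7% for shared sites. Within bins of GC content the AP-1 odds ratio of new against shared distal sites was 1.68. New sites called in MB157R iEV held AP-1 more often than the remaining new sites (24.4% against 13.7%).

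GRHL motifs were more frequent at absent than at new distal sites (3.37% against 1.56%, odds ratio 2.21, 1.90 to 2.56, two-sided exact Fisher test, adjusted p = 6e-25), with 1.32% and 1.24% in the flanks. RUNX motifs (TGTGGTC or TGTGGTT) were more frequent at new than at absent distal sites (11.6% against 8.24%, odds ratio of absent against new 0.686, 0.634 to 0.742, same exact test, adjusted p = 3.2e-21), and in 6.44% and 6.13% of the flanks. The GATA motif AGATAA was also more frequent at new distal sites (8.79% against 4.79%), but both shares were below those of the flanks (10.9% and 9.30%). The SP and KLF motif GGGCGG was less frequent at both absent (14.6%) and new (12.3%) than at shared parental distal sites (25.3%). GC content moved with several of these shares. Against shared distal sites, the odds ratio of the SP and KLF motif was 0.505 at absent and 0.396 at new sites, and 0.734 and 0.759 within bins of GC content. That of RUNX at new sites went from 1.36 to 1.06 (0.963 to 1.17) within these bins, that of GATA at new sites from 2.26 to 1.40, and that of GRHL from 1.22 to 0.987 (0.822 to 1.18) at absent and from 0.582 to 0.452 at new sites. Windows of the same length at all protein-coding TSSs held the AP-1 motif in 2.62%, GRHL in 0.927%, RUNX in 4.64%, GATA in 4.51% and the SP and KLF motif in 46.9%. Over all 19 motifs, 5 were higher and 9 lower at absent than at new distal sites after adjustment, and 5 did not pass. The 19 include the reversed controls, and the AP-1 reversed control was among the 9 lower. The RBPJ motif and its core TGGGAA, which overlap, were both among the 5 higher.

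**Figure D3:**
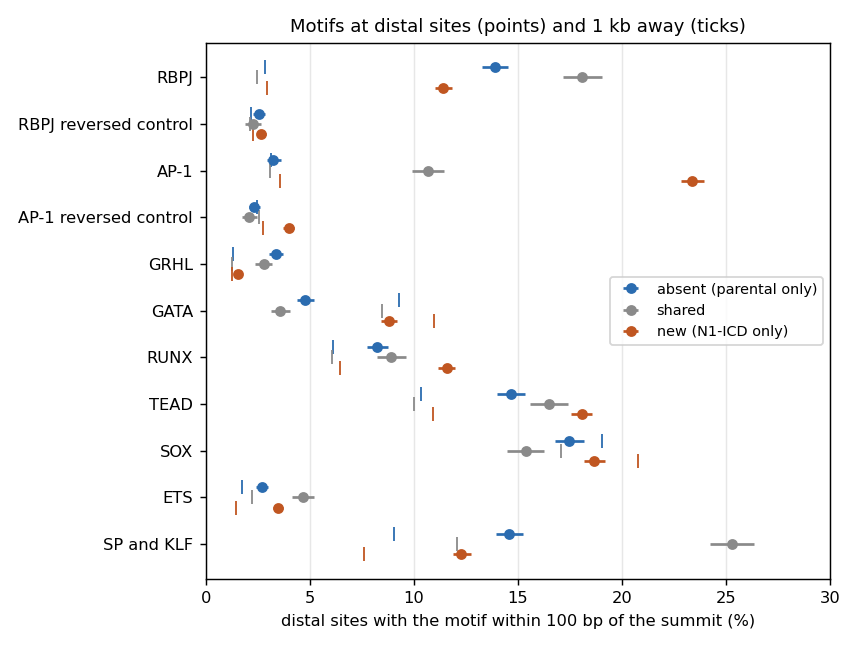
Share of distal absent (blue), shared parental (gray) and new (orange) RBPJ sites (x axis, %) that hold each of 11 motifs (y axis) within 100 bp of the summit, with exact 95% intervals, and the share 1 kb to either side (ticks). The RBPJ motif is above its flank level in every class, and the AP-1 motif reaches 23.4% at new sites and 3.26% at absent sites.

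Each site was next assigned to the protein-coding gene whose TSS was nearest, up to 50 kb away. Of 19962 protein-coding genes, 30.7% had an absent site, 34.1% a shared site and 41.9% a new site, and 12.7%, 22.2% and 17.6% had one at the promoter. Among the 26402 absent and new sites assigned to a gene, 37.8% were absent. These values are the background for the groups of genes below, which were chosen with earlier results of these data known and are described by their counts alone.

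Genes of the HES and HEY family, which includes direct NOTCH targets, had RBPJ sites in both states. A shared site was assigned to all 10 of these genes, an absent site to 4 and a new site to 8. The shares over all protein-coding genes were 34.1%, 30.7% and 41.9%. The HES1 summit 1.23 kb upstream of the TSS had a fold of 49.9 in MB157 iEV and 23.9 in MB157R iN1-ICD (chr3:194134427-194137830). HEY1 had a fold of 38.5 and 13.8 at its TSS, HEY2 one of 34.1 and 20.0 at 1.73 kb downstream, HES4 one of 41.5 and 46.4 at its TSS, and HES5 one of 7.30 and 12.0 at its promoter. These loci were called in MB157R iEV too, with folds of 39.4, 21.97, 50.5, 54.8 and 6.73.

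HES1 also had sites that differed between the lists. Sites 43.1 kb (fold 10.3) and 38.5 kb upstream (fold 10.8) were absent with N1-ICD and were not called in MB157R iEV, but had folds of 7.14 and 7.26 in MB157 iSOX2. A site in HES1, 1.01 kb downstream of the TSS, was new with a fold of 15.1 and was called in no other RBPJ list, although its peak overlaps that upstream peak of the parental list. HEYL and HES2 each had an absent promoter site, with folds of 4.72 and 5.76. That of HES2 is absent by distance alone, as an iN1-ICD peak with its summit 0.52 kb away (fold 12.5) overlaps it. HEYL also had an absent site in the first intron (fold 7.68, chr1:39632917-39633500), which had a fold of 4.18 in MB157R iEV. The iN1-ICD summits nearest to the HEYL sites were 6.93 and 13.8 kb away, and its region 7.25 kb upstream was shared (fold 6.53 and 4.66).

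Among genes that modulate NOTCH signaling, the strongest shared loci belonged to NRARP, the feedback inhibitor of N1-ICD. Its sites 9.35 kb and 2.94 kb upstream had folds of 70.1 and 46.0 in MB157 iEV and 99.2 and 52.5 in MB157R iN1-ICD. New sites included a region in the first intron of LFNG, a glycosyltransferase that modifies NOTCH receptors (fold 24.4, chr7:2520874-2524770), the first intron of DTX4, a Deltex ubiquitin ligase (fold 20.2, chr11:59173122-59175387), and an intron of its relative DTX1 (fold 20.0, chr12:113089368-113089817). A parental peak overlaps those of LFNG and DTX4, with summits 1.69 and 0.71 kb away. The sites in LFNG and DTX4 were also called in MB157R iEV (folds 30.3 and 15.3), while that in DTX1 was called in no other RBPJ list.

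NOTCH1 had 3 absent, 5 shared and 18 new sites. The shared site in its first intron had a fold of 35.7 in MB157 iEV and 23.7 in MB157R iN1-ICD (chr9:136544299-136545016). Of the new sites, 7 had summits in the gene and 11 outside, their median fold was 5.01, and 10 were RBPJ sites of MB157R iEV. No new peak overlapped any of the 34 exons of NOTCH1. Whether reads from the vector, which encodes NOTCH1 without its extracellular domain, contributed to any site was not tested. Around the start site, the parental summit 1.32 kb upstream (fold 8.83) and the iN1-ICD summit 0.32 kb upstream (fold 9.04) lay in overlapping peaks and count as absent and new by distance alone. NOTCH3 had shared sites in intron 2 (fold 28.1 and 19.1) and intron 1 (fold 16.2 and 6.69), and the ligand gene DLL4 in intron 3 (fold 23.4 and 24.6).

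RBPJ partner genes had sites of each class. Over all protein-coding genes, 34.1% had a shared, 30.7% an absent and 41.9% a new site. Of 10 coactivator genes, 7 had a shared site, 3 an absent and 4 a new one, and the promoters of MAML1 (folds 6.28 and 7.98), MAML2 (4.22 and 4.22) and MAML3 (10.6 and 6.99) were shared. The promoters of the acetyltransferase genes CREBBP (fold 7.10) and KAT2B (6.27 and 5.31 at adjacent sites) were absent with N1-ICD, although RBPJ was called there in MB157R iEV with folds of 4.37, 6.73 and 3.19. Of 15 corepressor genes, 4 had an absent and 9 a new site. At SPEN, a corepressor that binds RBPJ directly, the parental summit (fold 14.4) and the iN1-ICD summit (fold 31.6) were 0.97 kb apart within overlapping peaks, and a site in intron 1 was shared (fold 14.8 and 16.8, chr1:15848882-15850263).

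Other direct NOTCH targets held strong sites of each class. IER5, an immediate early gene, had shared sites up to a fold of 81.0 in MB157 iEV and 50.3 in MB157R iN1-ICD, at 29.1 kb downstream. CCND1, which encodes cyclin D1, had a shared site 2.66 kb upstream (fold 23.04 and 15.6) and a new site 41.5 kb upstream (fold 13.2). SOX9, a transcription factor of progenitor cells, had 9 absent sites, the strongest 16.0 kb upstream with a fold of 19.1 (chr17:72103957-72105586). This site was called in MB157 iSOX2 (fold 15.7) and not in MB157R iEV. MYC, the growth regulator, had 10 absent, 4 shared and 3 new sites. Its promoter site was shared (fold 12.0 and 8.78), a site 28.2 kb upstream was absent (fold 15.7, MB157 iSOX2 14.0) and a site 48.1 kb upstream was new (fold 15.1, MB157R iEV 12.5).

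The genes with the most absent sites were led by NFIX, a nuclear factor I transcription factor, with 16 absent, 1 shared and 2 new sites. Of the 16, 12 were called in MB157 iSOX2 and 3 in MB157R iEV, and none was near a SOX2 summit of MB157R iEV. The strongest lay in its first intron and had a fold of 43.6 in MB157 iEV, 23.6 in MB157 iSOX2 and 3.54 in MB157R iEV (chr19:13020066-13021007). CDC42EP4, an effector of the GTPase CDC42, followed with 14 absent sites, BAHCC1 with 13 absent and 15 new sites, and EPHB3, an ephrin receptor, TFAP2A, an AP-2 transcription factor, TEX2, MRGBP and MYC with 10 each. At BAHCC1 a peak of the other list overlapped 5 of the absent and 7 of the new sites, including the strongest of each (folds 22.8 and 18.5). IRF2BPL had 9 absent sites.

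The genes with the most new sites were EPHA2, an ephrin receptor, with 19, SMAD3, a mediator of TGF-β signaling, with 18, NOTCH1 with 18, and WNT7A and KLF6 with 17 each. COL5A1, a fibrillar collagen gene, EGFL7, MICAL2, BAHCC1 and PTK2, the gene of focal adhesion kinase, had 15 each. COL5A1 had neither absent nor shared sites, and 9 of its 15 sites were called in MB157R iEV, 7 lay near a SOX2 summit of that line and none was called in MB157 iSOX2. SMAD3 had 2 shared and no absent sites, and 12 of its 18 new sites were called in MB157R iEV, 3 in MB157 iSOX2 and 10 near SOX2. The strongest new site of WNT7A, in intron 3, had a fold of 35.98 and of 24.1 in MB157R iEV (chr3:13849792-13851108). Counts per gene, of absent and new sites alike, were not adjusted for the background of the chromosome, which is given below.

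**Figure D4:**
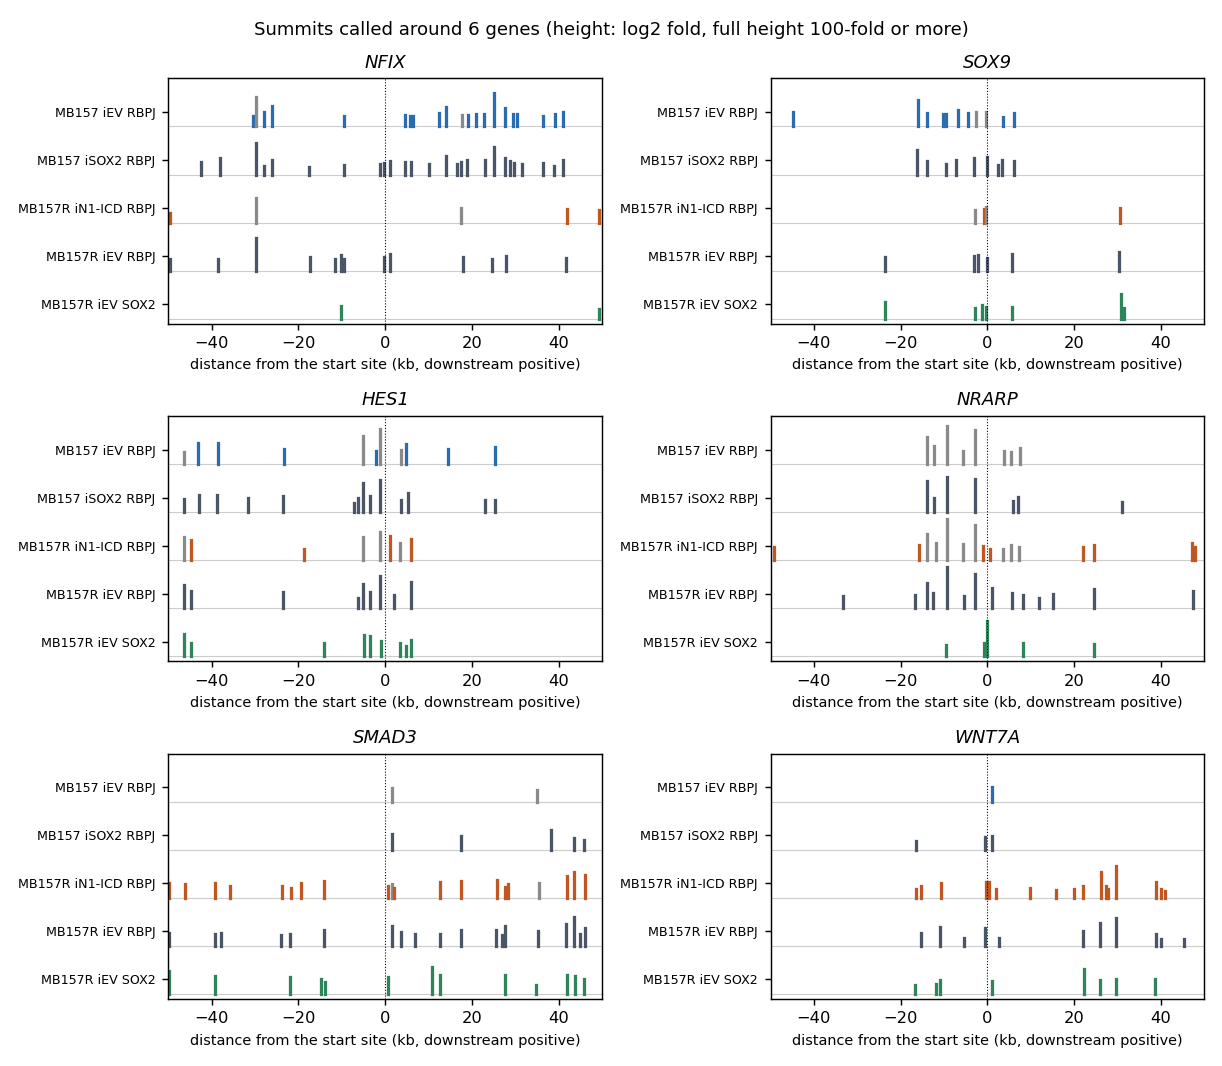
RBPJ and SOX2 summits within 50 kb of the TSS of 6 genes (x axis, distance from the TSS in kb), with 1 row per list and a height that follows the log2 fold. Blue marks absent, gray shared and orange new RBPJ sites. NFIX and SOX9 have 16 and 9 assigned absent sites, NRARP keeps its upstream sites, and SMAD3 and WNT7A have 18 and 17 new sites.

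Beyond the NOTCH pathway, epithelial and SOX genes as groups had more absent than new sites, and basal and mesenchymal genes the reverse, against the 37.8% of all genes. Of the 97 absent and new sites of 25 epithelial genes, 56.7% were absent, but counted by genes the classes were close, with an absent site at 15 and a new site at 16. The absent sites included sites downstream of CLDN3 (fold 14.6) and upstream of CLDN4 (fold 14.0), which encode claudins of tight junctions, and 49.0 kb upstream of EPCAM, an adhesion molecule (fold 10.6). RBPJ was called at none of these in MB157R iEV. A site 34.6 kb upstream of EPCAM was shared (fold 18.0 and 5.83). ELF3, an epithelial ETS factor, and GRHL2, an epithelial regulator, held 9 and 8 of the 55 absent sites, although GRHL2 also had a shared promoter (fold 17.1 in MB157 iEV) and 2 new sites. Its 8 absent sites had folds of at most 4.88. The absent sites of ELF3 had folds up to 8.94, and it had 4 shared sites and 4 new ones up to 10.8. Members that went the other way, named after their values were seen, included KRT18, a keratin of simple epithelia, with no absent and 7 new sites. ST14 had no absent and 5 new sites, GRHL3 no absent and 3 new, and GRHL1 had 1 and 4. Strong shared epithelial sites were the promoter of CLDN7 (fold 27.7 and 17.0) and a site in the first intron of DSP, the gene of desmoplakin (fold 27.3 and 14.3). The strongest new site of KRT18 lay 3.06 kb upstream (fold 18.2).

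Of the 55 absent and new sites of 19 SOX family genes, 60.0% were absent, and by genes 12 had an absent and 10 a new site. SOX9 alone held 2 of the 22 new and 9 of the 33 absent sites. Besides SOX9, the strongest lay 23.6 kb upstream of SOX4 (fold 22.1) and in an intron of SOX13 (fold 11.3), and neither was called in MB157R iEV. SOX4 had 2 absent, 4 shared and 6 new sites in all. SOX2 itself had 2 absent sites with folds up to 5.70 and 3 new sites with folds up to 4.23, 1 of the new ones at the promoter.

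Of the 66 absent and new sites of 16 basal mammary genes, 18.2% were absent. KRT17, a basal keratin, had a new site 28.0 kb upstream with a fold of 26.9, beside a shared site 29.3 kb upstream (fold 10.4 and 44.5). The new site had no summit of another RBPJ list less than 500 bp away, but a peak of another RBPJ list overlaps it. At KRT5, another basal keratin, the parental summit 2.17 kb upstream (fold 32.4) and the iN1-ICD summit 1.46 kb upstream (fold 21.3) lay in overlapping peaks. TRIM29 had a new site with a fold of 16.6, and ITGA6, an integrin of basal cells, had 9 new sites with folds up to 6.74. ITGB4, an integrin gene of this group named after its values were seen, went the other way, with 4 absent and 2 new sites. Of the 62 such sites of 25 EMT and mesenchymal genes, 27.4% were absent. New sites lay 29.4 kb upstream of FN1, the fibronectin gene (fold 20.4), and 11.7 kb upstream of TGFBI, a TGF-β-induced matrix protein (fold 10.2), both called in MB157R iEV, while the promoter of VIM, the vimentin gene, was shared (fold 12.1 and 20.3). SPARC, a matrix glycoprotein gene of this group named after its values were seen, went the other way, with 6 absent and 1 new site.

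Among 15 stem cell genes, 30.6% of 49 sites were absent. The TSS of ALDH1A3, an aldehyde dehydrogenase used as a stem cell marker, was a new site with a fold of 34.2 and a fold of 46.4 in MB157R iEV, and a site 41.9 kb upstream of PROM1, which encodes CD133, was absent (fold 20.1). AP-1 family genes had 22.2% of 54 absent and new sites in the absent class, with shared sites near MAFK (fold 16.5 and 32.5) and JUNB (11.6 and 14.4) and a new site in FOSL2 (13.0). YAP and TEAD genes had 21.6% of 37, luminal mammary genes 46.3% of 41, the study's NOTCH signature, a list the study chose from its own and earlier expression data and which is thus no independent evidence, 39.0% of 282 and ribosomal protein genes 48.3% of 29. Of the markers of the labelled cell type, KRT5, KRT14, KRT17, EPCAM and CDH1 had sites of some class and TP63 none, but peaks do not measure expression. Sites of some class were assigned to 5 of 12 liver, 6 of 12 blood cell and 5 of 10 muscle genes, and to 69.3% of all genes.

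Beyond the NOTCH pathway genes named above, the strongest sites of each class had diverse neighbors. YPEL2 among them is in the study's NOTCH signature. Beside those shown by sequence, absent sites of high fold were the promoter of CPSF4L, related to an mRNA cleavage factor (fold 41.2, chr17:73261914-73263164), an intron of YPEL2 (34.3, chr17:59377040-59377930) and an intron of C1QTNF1, a secreted C1q-like protein (32.3, chr17:79033285-79034918). RBPJ was called at each of them in MB157 iSOX2, with folds of 22.3, 9.94 and 17.9, and at none in MB157R iEV. New sites of high fold lay near C17orf107 (47.1, chr17:4909157-4910279), in an intron of MKNK2, a kinase of the translation factor eIF4E (39.6, chr19:2047313-2048194), and in an intron of STK17A, a kinase linked to apoptosis (38.4, chr7:43591268-43592094), with folds of 40.7, 50.4 and 21.5 in MB157R iEV. The first and the second were also called in MB157 iSOX2, with folds of 7.39 and 3.95. Among shared sites the GTF2H4 promoter was strongest, with folds of 101 and 61.9, and this gene encodes part of the general factor TFIIH.

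Absent and new sites were unevenly spread over chromosomes. The share of parental sites that were absent ranged from 37.8% on chromosome 15 to 64.8% on chromosome 8, and the share of iN1-ICD sites that were new from 57.5% on chromosome X to 82.1% on chromosome 15. The background under the peaks, relative to that of the whole genome, differed between the lists in the same direction: it was 1.29-fold higher in iN1-ICD on chromosome 15 and 0.671-fold of the parental one on chromosome 16, where 63.4% of parental sites were absent. Over the 23 chromosomes, which share libraries and depth, the log2 ratio of backgrounds had a correlation with the absent share of -0.839 (Pearson) or -0.799 (Spearman) and with the new share of 0.675 or 0.579. On the 11 chromosomes whose backgrounds differed less than 1.2-fold, 44.7% of parental and 29.1% of iN1-ICD sites were shared, and the odds ratios for SOX2 and the AP-1 motif remained on the same side of 1. Of the genes with many absent sites, NFIX lies on chromosome 19 (ratio of backgrounds 0.666) and MYC on chromosome 8 (0.689). Of those with many new sites, SMAD3 lies on chromosome 15 (1.29) and MICAL2 on chromosome 11 (1.24). NOTCH1, COL5A1 and EGFL7 lie on chromosome 9 (1.24). EPHA2, KLF6 and PTK2, also with many new sites, lie on chromosomes 1 (0.815), 10 (0.873) and 8 (0.689). CDC42EP4 and BAHCC1 lie on chromosome 17 (0.905) and WNT7A on chromosome 3 (0.936). The part of the chromosomal background in single sites and in the counts per gene was not tested.

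**Figure D5:**
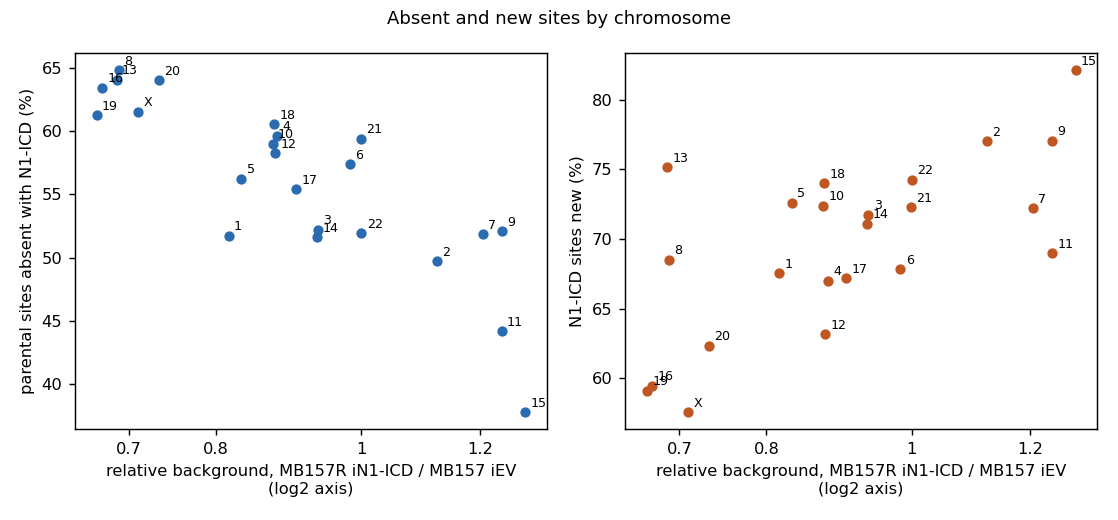
Share of parental RBPJ sites absent with N1-ICD (left, y axis, %) and of iN1-ICD sites that were new (right, y axis, %) for each of 23 chromosomes, against the ratio of their relative backgrounds, MB157R iN1-ICD over MB157 iEV (x axis, log2 scale). Chromosome 15 has the lowest absent share (37.8%) and the highest new share (82.1%).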

How the data were processed

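RBPJ ChIP-seq of MB157 iEV and MB157R iN1-ICD cells (3 libraries each) was used as deposited peak lists. The authors aligned trimmed reads to hg38 with BWA and called narrow peaks with MACS2 at an FDR of 0.05 on pooled replicates with inputs as control. The deposited lists give other values such as the position and summit of each peak, the authors' fold enrichment over the local background as a ratio, and the authors' -log10 p and q values. No per-sample values were used.

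From these, summits were paired at less than 500 bp, fragments at summits and the background were recovered from fold and p (depth behind each site), and sites were assigned to protein-coding TSSs of GENCODE release 44. Motifs were searched on both strands of hg38 within 100 bp of the summit. Beside those spelled in the report these were TGGGAA (RBPJ core), for SOX AACAAAG or the spelling AACAATG, with ATCAAAG or its like ATCAATG, with TACAAAG or its like TACAATG, and with TTCAAAG or its like TTCAATG, for ETS CCGGAAA or the spelling CCGGAAG, for TEAD AGAATGC or the spelling AGAATGT, and GGAATGC or the spelling GGAATGT, for FOX TGTTTAC or the spelling TGTTTAT, for NFY CCAAT, TGACGTCA (CREB), AAGATGG (YY1), CACGTG with CAGGTG (E-boxes), ATGCAAAT (POU), and the RBPJ and AP-1 letters reversed. The RBPJ core lies within TGTGGGAA and CGTGGGAA.

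Shares were compared by Fisher's exact test (two-sided) with Woolf intervals, by Mantel-Haenszel odds ratios over 5 bins of fold, and by exact McNemar tests, with Benjamini-Hochberg adjustment over motifs. The scripts were tested on simulated data. The members, gene lists and tests were chosen with earlier results of these data known. Named genes were those of the NOTCH lists with a site, the 10 sites of highest fold per class, the 10 genes with the most absent or new sites, and up to 4 genes per other list and class by fold, and sites named outside this rule were chosen after their values were seen. The scripts ran under Python 3.11.15 with scipy 1.17.1, numpy 2.4.6, pandas 2.3.3, pysam 0.24.0 and matplotlib 3.10.9, and samtools 1.23.1 indexed the genome. Some genes and sequences that meet these rules are not reported here.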

Additional observations from a re-analysis of the deposited data

How the results depend on the processing

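The share of sites called in both lists depended on how it was counted. Of parental sites, 44.2% were shared at 500 bp, 26.2% at 100 bp, 37.1% at 250 bp, 50.4% at 1000 bp, 46.7% by overlap of peak regions, 41.9% with a -log10 q of at least 5, 35.1% with lists of equal length, 36.4% among distal and 63.3% among promoter sites. Of iN1-ICD sites, 30.04% were shared, against 17.7%, 25.1%, 35.1%, 32.2%, 27.3%, 35.0%, 22.7% and 55.1% in the same order, and 29.1% on chromosomes of similar background. Of 124 alternative values for 10 tested results, 119 kept their direction and side of the threshold. The exceptions were the RBPJ motif at absent sites, with an odds ratio of 1.05 within bins of fold and 1.22 against new instead of shared sites, the promoter share of absent sites, with 1.39 against new sites, and at promoter sites alone SOX2 of MB157R iEV at new sites (0.730) and AP-1 at absent sites (0.682, past the threshold no more). Comparisons with new sites differ by construction, and the cause of the other exceptions was not tested. Odds ratios ranged from 0.114 to 0.682 for AP-1 at absent sites, from 1.92 to 8.76 for AP-1 and from 0.730 to 10.7 for SOX2 at new sites, the highest values being those of new against absent sites. The ratio of calls in the other list of the same line to those in the other line ranged from 2.40 to 11.4 at absent and from 3.93 to 24.6 at new sites. Bins of GC content, promoter sites alone, equally long comparison lists and leaving out sites that overlap a peak of the other list were added after seeing the data. No paired analysis was possible because each group has 1 pooled list, and for the same reason no replicate could be left out. Depth limits the weakest sites, whose absence may be a missed call.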

Other observations

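New sites called in no other RBPJ list had a median fold of 4.21. It was 4.30 for new sites called in MB157 iSOX2 only, 5.08 in MB157R iEV only and 4.88 in both. Those that also overlapped no peak of another RBPJ list included the loci named here, which were chosen after their values were seen. The promoter of TFF1, which encodes a secreted trefoil peptide, had a fold of 16.7 (chr21:42366608-42367249). A site 15.0 kb upstream of TNFSF10, the gene of the death ligand TRAIL, had a fold of 16.4 and held an RBPJ motif (chr3:172538255-172538882). A site 14.5 kb upstream of F2RL1, a protease-activated receptor, had a fold of 16.6, and one 12.6 kb upstream of TEKT1 a fold of 17.0. The 9018 new sites not called in MB157R iEV held the RBPJ motif in 10.8%, against 10.4% of the 17075 called there (odds ratio 1.05, 0.963 to 1.14, two-sided exact Fisher test, adjusted p = 0.3 over 26 tests), and within bins of fold the odds ratio was 1.51 (1.38 to 1.65, sites of these pooled lists, no replicate error).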
